A study of Rattus norvegicus with 6 samples.

Results

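The genes described here encode the folding and quality-control machinery of the endoplasmic reticulum (ER): its chaperones, the enzymes that form disulfide bonds, the factors that send failed proteins to degradation, the translocon through which new chains enter, and the sensors of ER stress. They were taken as a fixed list of 40 symbols, of which 39 stood in the mRNA table, 1 row each, out of 16551 genes. Derl3 was not analysed here. The RNA came from cultured primary cells of the dorsal root ganglion (DRG) of rats, the tissue in which the cell bodies of sensory neurons lie among glia and connective tissue. The high-glucose group (titled DM) had 3 samples, cultured for 48 h in medium holding 45 mmol/L glucose, and the control group also had 3, cultured for 48 h in medium whose glucose level is not given here. The title DM was read as high glucose because the design names these groups and the labels leave the match open. An osmotic control was not among the samples, the strain, sex and age of the rats were not given, and a fixation step in the growth protocol may or may not concern the sequenced cells. Separate cultures or animals are not stated for the samples of a group, so each p-value reflects the spread among these samples alone, and that spread may be technical.

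Proteins bound for the cell surface, the matrix or secretion fold in the ER with the help of BiP (encoded by Hspa5) and its partners, while calnexin and calreticulin hold glycoproteins and the disulfide isomerases pair their cysteines. Chains that fail to fold are trimmed, pulled back into the cytosol and degraded. When unfolded proteins build up, the sensors IRE1 (Ern1), ATF6 and PERK (Eif2ak3) start the unfolded protein response, in which ATF6 and the spliced form of XBP1 switch on many of the genes on this list, and PERK slows translation and raises ATF4.

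Most of the machinery was lower in high glucose, with a minority of members going the other way. Of the 39 measured members, 25 were lower and 6 were higher at a limma adjusted p under 0.05, and 8 did not pass. Among all 16551 genes 50.5% passed the same test: 25.5% were lower and 24.9% were higher, against 64.1% and 15.4% of the members. The largest falls were those of the chaperones Hspa5 (1.49-fold) and Serpinh1 (1.41-fold), and the largest rises those of the degradation factor Edem2 (1.45-fold) and its paralog Edem3 (1.30-fold). No member changed by 1.5-fold, whereas 7.3% of all genes were called at least 1.5-fold lower. The median log2 difference, high glucose minus control, was -0.16 over the members and 0.01 over all genes. The lowest read count of any member in any sample was 217 (Ero1b in 1 sample), so no member lay near 0 reads. Ero1b had 709 reads over the high-glucose samples and 748 over the control samples. Its SE of 0.08 was among the larger ones of the members, and the part of read depth in it was not tested. In 24 members all 3 high-glucose samples lay below all 3 control samples, and in 6 they lay above. Of all genes 57.6% were separated in this way, 28.9% below and 28.7% above. The fitted difference was below 0 for 29 of the 39 members and for 48.6% of all genes.

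The size of these shifts depends on how libraries were scaled. The authors' scaling factors did not overlap between groups (1.03 to 1.05 in high glucose, 0.959 to 0.964 in control). On plain library totals the median of all genes moved to 0.13, 16 members were lower and 12 higher, and 17.2% of all genes were lower and 35.8% higher. Relative to the median of all genes the members' median was -0.18 with either scaling. That value cannot change here, because swapping the scaling factors moves every gene by the same amount. After quantile normalization 20 members were lower and 8 higher, beside 24.7% of all genes lower and 25% higher. The members' median was then -0.10, or -0.11 relative to the median of all genes. Of the 39 members, 20 kept their direction and their call under every one of 15 alternative settings, 15 of them lower and 5 higher. The share of all genes that did so was not computed, so this count has no background beside it. The 15 were Hspa5, Hsp90b1, Canx, Hyou1, Dnajc3, Manf, Creld2, Serpinh1, Pdia3, Pdia6, Ero1a, Sel1l, Xbp1, Atf6 and Ern1. The 5 were Dnajc10, Edem2, Edem3, Derl1 and Eif2ak3.

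**Figure D1:**
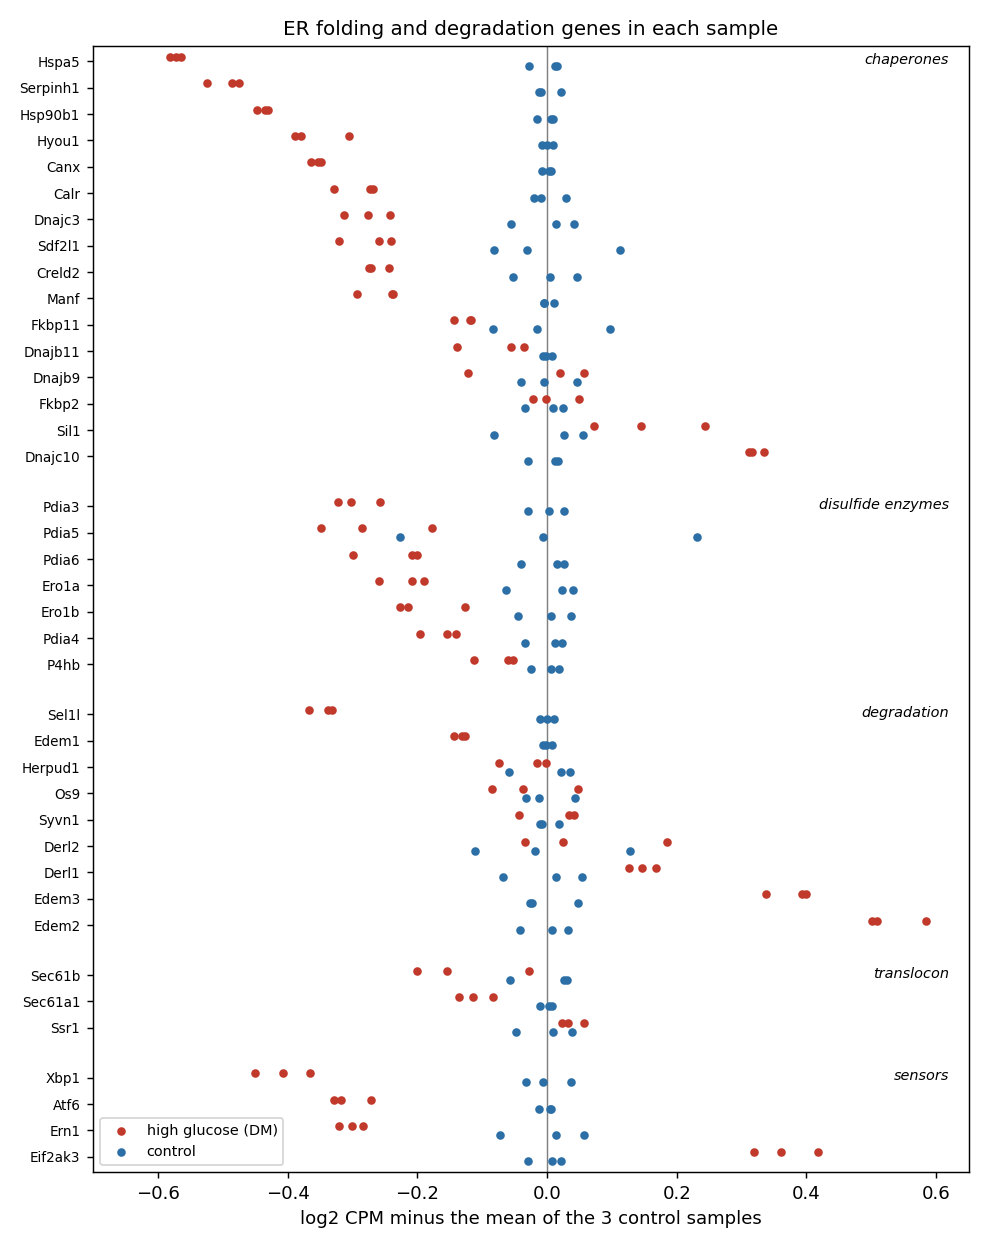
Each point is 1 sample of 1 gene, as its log2 CPM minus the mean of the 3 control samples of that gene, with high-glucose samples (red) drawn above control samples (blue) and genes grouped by role. Hspa5, Serpinh1 and Hsp90b1 lie farthest to the left, and Edem2, Edem3, Eif2ak3 and Dnajc10 lie to the right with no overlap between groups.

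Markers of several cell types of the ganglion moved with the same comparison. The counts per list stand beside 25.5% lower and 24.9% higher among all genes. Levels are given as CPM, reads scaled to library size, which are the deposited log2 values put back on the linear scale. Neuronal markers summed to between 84.3 and 87.2 CPM in high glucose and between 122 and 126 CPM in control, and 10 of 20 were lower and 1 higher. Most of the neuronal sum came from Uchl1 (4584 reads over the high-glucose samples, 5184 over the control samples) and Tubb3 (847 and 2034), which were lower. Stmn2 (259 and 1093 reads) was also lower, Syt1 (1332 and 669 reads) was higher, and Avil (719 and 680 reads) did not pass. Of the 20 neuronal markers, 8 had 0 reads in at least 1 sample, among them Rbfox3, Elavl4, Snap25, Isl1 and Pou4f1. Isl1 and Pou4f1, transcription factors that define sensory neurons, had 2 and 1 reads over the high-glucose samples and 7 each over the control samples, so these genes barely registered in either group. Markers of glia and Schwann cells summed to 709 to 763 CPM in high glucose, against 1105 to 1146 CPM in control (13 of 15 lower, 1 higher), and those of mural cells and smooth muscle to 8447 to 8525 CPM, against 15020 to 15170 CPM (7 of 12 lower, 3 higher). Fibroblast markers summed to 65030 to 68930 CPM in high glucose and 74850 to 77970 CPM in control (5 of 11 lower, 5 higher). Most of that sum came from Col1a1, Col3a1 and Fn1, of which Col3a1 was higher. Lum (832 CPM in high glucose, 187 CPM in control), Dcn (128 and 54.3 CPM), Pdgfra (285 and 155 CPM) and Fap were also higher. Col1a1, Fn1, Postn, Thy1 and Mfap5 were lower. Most of the mural sum came from Acta2 and Tagln, which were lower, while Kcnj8, Abcc9 and Notch3 were higher. Macrophage markers summed to 36.0 to 37.7 CPM in high glucose and 31.9 to 32.9 CPM in control. Of 11, 3 were lower (27.3%) and 2 higher (18.2%), near the shares of all genes. Endothelial markers summed to 63.2 to 64.7 CPM in high glucose and 78.2 to 82.4 CPM in control (1 of 9 lower). The 1 was Ptprb (1.80 CPM in high glucose, 14.7 CPM in control), while Tek did not pass (14.8 CPM in both). Cdh5, Kdr and Tie1 had 3 to 12 reads over the high-glucose samples and 5 to 18 over the control samples. The part of all these markers in the members' differences was not tested, and in bulk samples fewer cells of a type and less RNA per cell cannot be told apart.

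Read shares give the same machinery as a whole. The 39 members took 1.22% ± 0.0129 of all mRNA reads in high glucose and 1.39% ± 0.00863 in control (SD, n = 3 each). The chaperones accounted for most of that gap, with 0.765% ± 0.0066 of reads in high glucose and 0.924% ± 0.00685 in control (SD, n = 3 each). The disulfide enzymes took 0.252% ± 0.00491 in high glucose and 0.263% ± 0.00396 in control. The degradation factors went the other way on this scale, with 0.104% ± 0.000778 in high glucose and 0.101% ± 0.000999 in control, as did the translocon genes, with 0.0684% ± 0.000964 and 0.0655% ± 0.00041. The sensors took 0.0296% ± 8.57e-05 in high glucose and 0.0319% ± 0.000337 in control. These shares rest on plain library totals and were not tested. On that scaling the median log2 difference of all genes was 0.13, beside 0.12 for the degradation factors and 0.0023 for the translocon genes. By these medians, neither the degradation factors nor the translocon genes rose relative to all genes.

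Chaperones of the ER lumen fell in 12 of 16 genes (75%) and rose in 2 (12.5%), beside 25.5% lower and 24.9% higher among all genes. Their median log2 difference was -0.27. On plain library totals 9 were lower and 3 higher, beside 17.2% and 35.8% of all genes. Hspa5 (ENSRNOG00000018294), the Hsp70 of the ER, had 795, 799 and 790 CPM in high glucose, against 1158, 1194 and 1191 CPM in control. The groups were far apart relative to their spread, and Hspa5 differed by -0.57 ± 0.02 on the log2 scale (SE, 3 samples per group, adjusted p = 1.3e-11). Serpinh1 (ENSRNOG00000016831), the procollagen chaperone HSP47, had 2162, 2178 and 2105 CPM in high glucose and 3001, 3009 and 3074 CPM in control, a difference of -0.50 ± 0.02 (adjusted p = 5.02e-11). Hsp90b1 (ENSRNOG00000026963), the ER form of Hsp90, had 878, 885 and 888 CPM in high glucose, against 1184, 1205 and 1202 CPM in control (-0.44 ± 0.02, adjusted p = 8.38e-11). Canx (ENSRNOG00000003343), the membrane lectin chaperone calnexin, had 999, 1006 and 1010 CPM in high glucose and 1289, 1278 and 1290 CPM in control (-0.36 ± 0.02, adjusted p = 4.58e-10).

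In none of the 4 did the groups overlap. Under quantile normalization their log2 differences were smaller, at -0.32 for Hspa5, -0.28 for Serpinh1, -0.18 for Hsp90b1 and -0.05 for Canx, each still called. Calr, the soluble lectin chaperone calreticulin, differed by -0.29 ± 0.02 as deposited and by -0.04 after quantile normalization, where it did not pass (adjusted p = 0.0803, within a range of 9.04e-09 to 0.0803 over the alternatives). The cause of that dependence was not tested.

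The co-chaperones of BiP split. Hyou1, which exchanges its nucleotide, fell by 0.36 ± 0.02 on the log2 scale, and Dnajc3, a J-domain partner, fell by 0.28 ± 0.03. Manf, a secretable protein that binds BiP, fell by 0.26 ± 0.03, Creld2, a stress-induced ER protein, fell by 0.26 ± 0.05, and Sdf2l1, a partner of J-domain proteins, fell by 0.27 ± 0.07. The fall of Sdf2l1 did not pass on plain library totals (-0.16, adjusted p = 0.0618, within a range of 0.00266 to 0.0618). Dnajc10, a J-domain protein that reduces disulfides of proteins on their way to degradation, rose: it had 267, 272 and 268 CPM in high glucose, against 211, 218 and 217 CPM in control (0.32 ± 0.02, adjusted p = 3.98e-08). Per sample the ratio of Dnajc10 to Dnajc3 was 2.22, 2.31 and 2.17 in high glucose and 1.43, 1.45 and 1.55 in control, a measure that no library scaling can move.

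Several chaperone calls were small. Sil1, another nucleotide exchange factor of BiP, had 33.1, 30.9 and 29.4 CPM in high glucose and 29.0, 26.4 and 28.5 CPM in control. Its difference of 0.15 ± 0.05 (adjusted p = 0.0299) did not pass without high glucose 1 (0.144), high glucose 2 (0.0521) or control 2 (0.131), nor after median centring (0.0677) or with a single variance prior (0.11), within a range of 0.00103 to 0.144. Dnajb11, a J-domain partner of BiP, differed by -0.08 ± 0.03 (adjusted p = 0.0403). Dnajb11 turned to 0.04 on plain library totals (0.278) and did not pass after quantile normalization (0.244), with a single variance prior (0.166) or without high glucose 1 (0.197), control 1 (0.0993), control 2 (0.0893) or control 3 (0.0711), within a range of 0.0142 to 0.278. Fkbp11, a prolyl isomerase, differed by -0.13 ± 0.05 (adjusted p = 0.0412). Fkbp11 did not pass without high glucose 1 (0.0821), high glucose 2 (0.0659), high glucose 3 (0.0992), control 2 (0.072) or control 3 (0.186). Nor did it pass on plain library totals, where the difference was -0.0128 (0.846), after quantile normalization (0.0864) or with a single variance prior (0.119), within a range of 0.0132 to 0.846. Dnajb9, which binds IRE1 and BiP, and Fkbp2, a prolyl isomerase, had differences of -0.01 ± 0.06 and 0.01 ± 0.04 and did not pass (adjusted p = 0.849 and 0.851). Fkbp2 passed as higher on plain library totals (0.12, adjusted p = 0.0114, within a range of 0.0114 to 0.892).

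**Figure D2:**
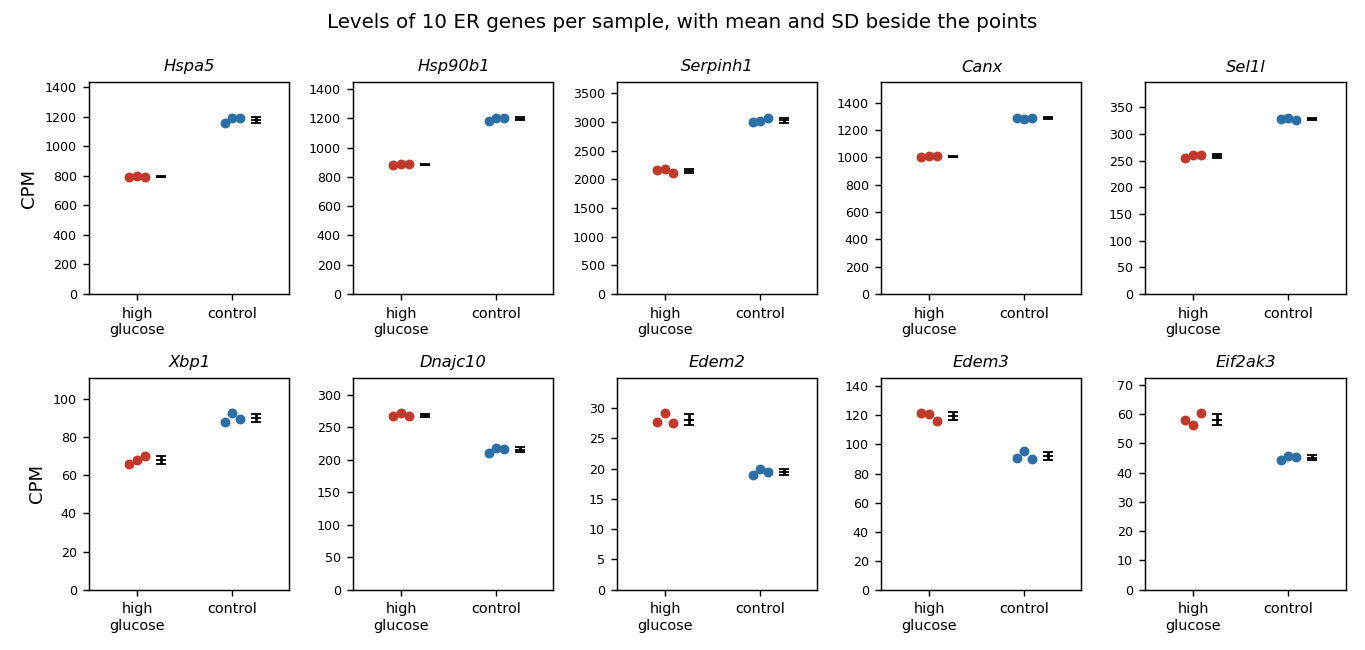
Points are CPM of 10 members in each sample, high glucose (red) left of control (blue), with the mean and SD beside them and every axis starting at 0. Hspa5, Hsp90b1, Serpinh1, Canx, Sel1l and Xbp1 were lower in all 3 high-glucose samples, and Dnajc10, Edem2, Edem3 and Eif2ak3 were higher in all 3.

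Disulfide enzymes fell in 6 of 7 genes (85.7%) and rose in 0 as deposited, beside 25.5% lower and 24.9% higher among all genes. Their median log2 difference was -0.22. On plain library totals 3 were lower, beside 17.2% of all genes. Pdia3, the isomerase that works with calnexin and calreticulin, had 647, 656 and 677 CPM in high glucose, against 810, 823 and 792 CPM in control (-0.29 ± 0.02, adjusted p = 7.83e-08). Pdia6 had 374, 376 and 351 CPM in high glucose and 420, 439 and 436 CPM in control (-0.24 ± 0.03, adjusted p = 9.01e-06). Both isomerases stood lower in every high-glucose sample than in any control sample. Pdia4, a further isomerase, had 300.5, 298 and 289 CPM in high glucose and 323, 337 and 334 CPM in control (-0.16 ± 0.02, adjusted p = 4.95e-05). Pdia4 did not pass on plain library totals (-0.05, adjusted p = 0.106, within a range of 1.17e-05 to 0.106).

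Ero1a, the oxidase that recharges the isomerases, had 48.8, 47.2 and 49.5 CPM in high glucose and 57.3, 54.0 and 58.0 CPM in control, a difference of -0.22 ± 0.04 (adjusted p = 0.000302). Its paralog Ero1b differed by -0.19 ± 0.08 and did not pass (adjusted p = 0.0673), but passed after quantile normalization (0.0303), after median centring (0.0411) and with a single variance prior (0.0211), within a range of 0.0211 to 0.472. P4hb, the classical isomerase PDI and a subunit of prolyl 4-hydroxylase, had the smallest difference of the called enzymes, -0.08 ± 0.02 (adjusted p = 0.0066), but it did not pass with a single variance prior (0.119), and its sign turned to 0.04 on plain library totals and to 0.19 after quantile normalization, where it was called higher (adjusted p = 0.00031, within a range of 0.00031 to 0.169). Pdia5 differed by -0.27 ± 0.09 (adjusted p = 0.0225) with overlapping groups. Pdia5 did not pass without high glucose 1 (0.0682), high glucose 2 (0.0697), control 2 (0.109) or control 3 (0.0517), nor on plain library totals (0.152) or with a single variance prior (0.157), within a range of 0.000992 to 0.157.

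Genes of ER-associated degradation did not share a direction. Of 9 measured, 2 were lower (22.2%), 3 were higher (33.3%) and 4 did not pass, beside 25.5% lower and 24.9% higher among all genes. Their median log2 difference was 0.01, as was that of all genes. On plain library totals 1 was lower and 7 were higher, beside 17.2% and 35.8% of all genes. Sel1l, the adaptor of the HRD1 ubiquitin ligase, had 255, 261 and 260 CPM in high glucose, against 328, 331 and 326 CPM in control (-0.35 ± 0.02, adjusted p = 8.91e-09). Syvn1, the HRD1 ligase itself, differed by 0.01 ± 0.03 and did not pass (adjusted p = 0.821). Herpud1, a scaffold of the same complex, and Os9, a lectin that brings glycoproteins to it, had differences of -0.03 ± 0.03 and -0.02 ± 0.03 that did not pass (adjusted p = 0.458 and 0.578). On plain library totals Syvn1 (0.12, adjusted p = 0.00452), Herpud1 (0.08, 0.0334) and Os9 (0.09, 0.0246) passed as higher. Over the alternatives their adjusted p ran from 0.00452 to 0.981, 0.0334 to 0.977 and 0.0246 to 0.96.

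The EDEM proteins, which trim mannose from glycoproteins that fail to fold, diverged. Edem2 had 27.6, 29.1 and 27.5 CPM in high glucose and 18.8, 19.9 and 19.5 CPM in control (0.53 ± 0.05, adjusted p = 7.81e-07). Edem3 had 121, 121 and 116 CPM in high glucose and 90.6, 95.2 and 90.4 CPM in control (0.38 ± 0.03, adjusted p = 2.17e-07). Edem2 and Edem3 were thus higher in every high-glucose sample than in any control sample. Edem1 had 140.2, 141 and 142 CPM in high glucose and 154, 155 and 156 CPM in control, a difference of -0.13 ± 0.02 (adjusted p = 0.000249) that did not pass on plain library totals (-0.02, adjusted p = 0.496, within a range of 0.000107 to 0.496). The ratio of Edem2 to Edem1 within a sample was 0.197, 0.206 and 0.194 in high glucose and 0.122, 0.128 and 0.125 in control, and that of Edem3 to Edem1 was 0.866, 0.855 and 0.82 in high glucose and 0.588, 0.615 and 0.58 in control. Derl1, a channel component of the export route, had 73.8, 72.8 and 71.7 CPM in high glucose and 62.7, 68.2 and 66.3 CPM in control (0.15 ± 0.04, adjusted p = 0.00349). Its paralog Derl2 differed by 0.06 ± 0.07 and did not pass (adjusted p = 0.5). Derl2 passed as higher on plain library totals (0.17, adjusted p = 0.0444, within a range of 0.0444 to 0.972).

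The translocon genes showed small differences, and whether they passed rests on the scaling. Sec61a1, the pore of the channel, had 342, 335 and 330 CPM in high glucose and 363, 359.7 and 364 CPM in control. Its difference of -0.11 ± 0.02 (adjusted p = 0.000473) did not pass after quantile normalization (0.18) and changed sign on plain library totals (0.0023, adjusted p = 0.938), within a range of 0.000205 to 0.938. Sec61b, a small subunit of the channel, had 45.9, 50.2 and 44.5 CPM in high glucose and 49.1, 52.0 and 52.2 CPM in control (-0.13 ± 0.05, adjusted p = 0.0356). Those groups overlapped, and Sec61b did not pass without high glucose 1 (0.113), high glucose 3 (0.144), control 2 (0.11) or control 3 (0.109). It kept its sign but did not pass on plain library totals (-0.0136, adjusted p = 0.835), after quantile normalization (0.109) or with a single variance prior (0.143), within a range of 0.00385 to 0.835. Ssr1, of the translocon-associated complex, had 274, 272 and 279 CPM in high glucose and 270, 275 and 259 CPM in control. Its difference of 0.04 ± 0.02 did not pass as deposited (adjusted p = 0.229) and passed as higher after quantile normalization (0.00242) and on plain library totals (8.11e-05), within a range of 8.11e-05 to 0.682.

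The sensors separated by branch. Xbp1, the transcription factor made active by IRE1, had 65.9, 67.9 and 69.9 CPM in high glucose, against 88.0, 92.4 and 89.6 CPM in control (-0.41 ± 0.03, adjusted p = 2.1e-07). Gene-level values do not separate the spliced from the unspliced Xbp1 RNA. Atf6 had 128, 124 and 123 CPM in high glucose and 153, 155 and 155 CPM in control (-0.31 ± 0.03, adjusted p = 2.58e-07). Ern1, which encodes IRE1, had 33.8, 34.6 and 34.3 CPM in high glucose and 43.9, 42.6 and 40.1 CPM in control (-0.30 ± 0.04, adjusted p = 4.5e-05). All 3 fell, and in each of them the groups did not overlap. Eif2ak3, which encodes PERK, rose: it had 57.8, 56.2 and 60.2 CPM in high glucose, against 44.1, 45.7 and 45.3 CPM in control (0.37 ± 0.04, adjusted p = 1.89e-06). The ratio of Eif2ak3 to Ern1 within a sample was 1.71, 1.62 and 1.76 in high glucose and 1.00, 1.07 and 1.13 in control. The ratio of Eif2ak3 to Atf6 was 0.452, 0.454 and 0.489 in high glucose and 0.288, 0.295 and 0.292 in control. The ratios within samples were chosen after the values were seen and were not tested.

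**Figure D3:**
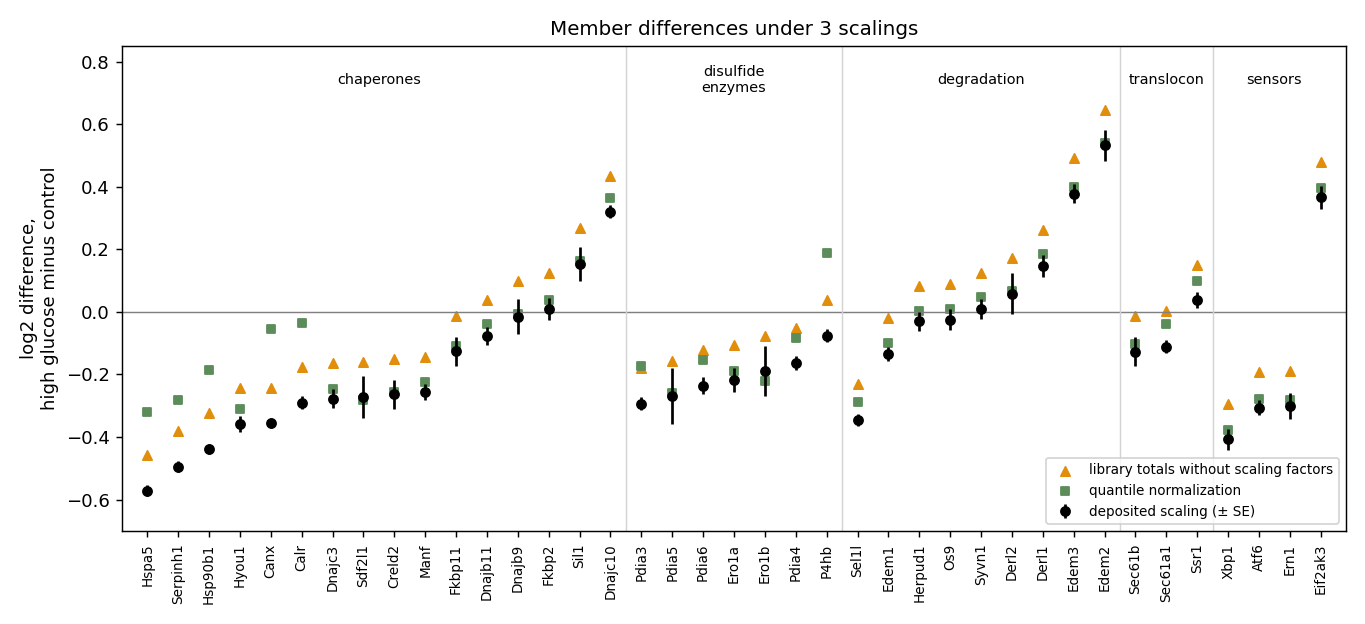
Log2 differences of the 39 members (high glucose minus control) with the deposited scaling (black, with SE), on plain library totals (triangles) and after quantile normalization (squares), by role. Edem2, Edem3, Eif2ak3 and Dnajc10 stay above 0 and Hspa5, Xbp1 and Sel1l below 0 under each, while P4hb goes from -0.08 as deposited to 0.19 after quantile normalization.

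Many of these genes are known for a promoter element through which ATF6 acts, the ER stress response element (ERSE). Promoter windows from RefSeq (assembly GRCr8, 250 bases before to 50 after the start) were matched by symbol for 30 members and searched on both strands. Atf6, Derl1, Ern1, Ero1a, Manf, Os9, Pdia3, Pdia6 and Sec61a1 had no window. The ERSE, which reads CCAAT and then, after 9 bases of any kind, CCACG, was found in 8 of the 30 (26.7%) and in 0.0765% of all 27457 windows. The shorter ERSE-II, which reads ATTGG, any 1 base and CCACG, was found in Hyou1, Dnajb11 and Herpud1 (10% of the 30) and in 0.0546% of all windows. The CCACG of both elements is common by itself, in 83.3% of the 30 and 32.5% of all windows. The list holds genes first described as targets of this response, so these shares are a description of the list. The XBP1 element TGACGTGG was found in Hyou1, where it overlaps an ERSE-II, and in Dnajc10, or 6.67% of the 30 and 0.637% of all windows. The ATF4 composite element TGATGNAAN was found in Herpud1 alone among the 30 (3.33%) and in 3.8% of all windows. The stretches printed here are those of the 4 ERSE holders with the largest falls and of 2 ERSE-II holders, Hyou1, which fell, and Herpud1, which did not pass. Each runs 5′ to 3′ along the gene's strand, with the element in capitals on whichever strand it reads.
Hspa5 (chr3:38452948-38453015, plus strand): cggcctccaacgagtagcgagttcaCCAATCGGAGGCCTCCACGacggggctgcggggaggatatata
Hsp90b1 (chr7:23012322-23012494, minus strand): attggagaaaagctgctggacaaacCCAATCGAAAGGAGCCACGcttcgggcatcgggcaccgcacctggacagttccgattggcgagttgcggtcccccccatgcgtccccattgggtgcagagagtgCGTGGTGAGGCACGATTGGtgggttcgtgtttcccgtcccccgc
Xbp1 (chr14:84604533-84604601, plus strand): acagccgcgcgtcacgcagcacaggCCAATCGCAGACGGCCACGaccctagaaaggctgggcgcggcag
Canx (chr10:35158044-35158107, minus strand): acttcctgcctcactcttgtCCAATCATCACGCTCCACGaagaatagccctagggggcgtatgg
Hyou1 (chr8:53602669-53602829, plus strand): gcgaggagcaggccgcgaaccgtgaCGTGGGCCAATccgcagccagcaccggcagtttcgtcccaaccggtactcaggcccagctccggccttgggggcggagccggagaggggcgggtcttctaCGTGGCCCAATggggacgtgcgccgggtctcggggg
Herpud1 (chr19:10614796-10614856, minus strand): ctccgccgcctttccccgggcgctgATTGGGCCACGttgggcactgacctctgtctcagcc

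Of the 8 holders of an ERSE (Calr, Canx, Creld2, Dnajc3, Ero1b, Hsp90b1, Hspa5 and Xbp1), 7 fell, none rose and Ero1b did not pass, with a median log2 difference of -0.32. Hyou1 and Dnajb11, with an ERSE-II, were lower and Herpud1 did not pass, and the median of the 3 was -0.08. Of the 19 members whose windows held neither, 9 were lower, 5 were higher and 5 did not pass (median -0.01). The members that rose and had a window, Dnajc10, Sil1, Edem2, Edem3 and Eif2ak3, were all among the 19, and so was Serpinh1, which fell. These counts and medians are as deposited, where 25.5% of all genes were lower and 24.9% higher. After quantile normalization, among the ERSE holders, Calr did not pass (-0.04, adjusted p = 0.0803) and Canx differed by -0.05, while Ero1b passed (-0.22, adjusted p = 0.0303). A match is a string of letters and does not show that a factor binds there, and the difference between these sets was not tested.

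**Figure D4:**
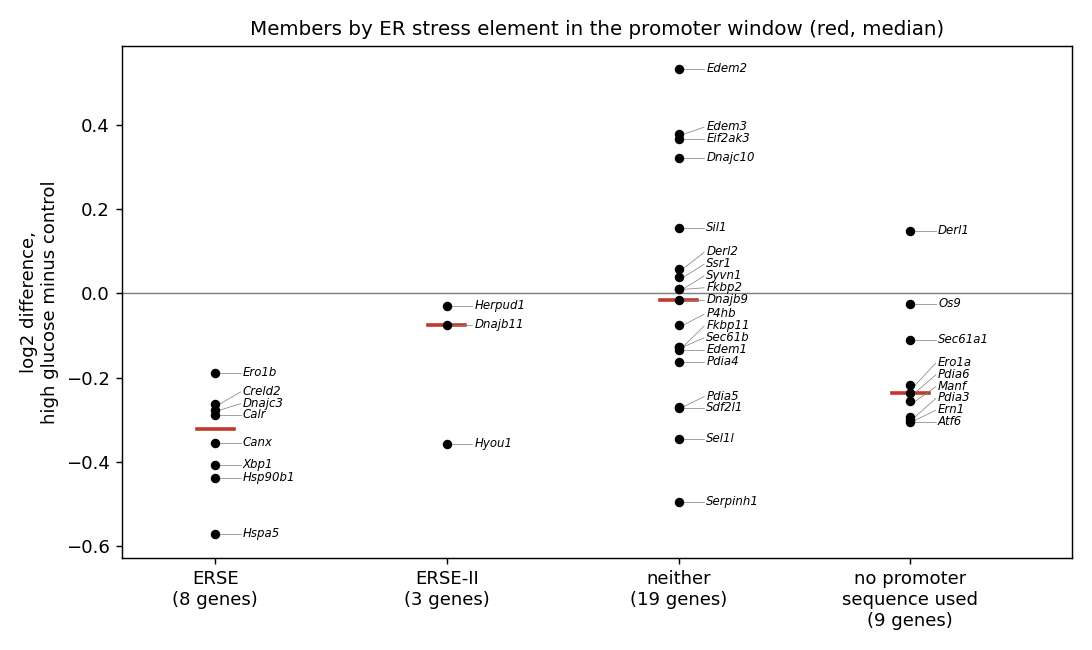
Log2 differences of the members (high glucose minus control), as deposited, by whether the promoter window held an ERSE, an ERSE-II or neither, with 9 members that had no window on the right and medians in red. The 8 ERSE holders lie between -0.57 and -0.19, while the 19 with neither run from -0.50 to 0.53.

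Other genes of the ER were read from 10 lists, 187 genes in all, of which 62 were lower (33.2%) and 56 higher (29.9%), beside 25.5% and 24.9% of all genes. The genes around ATF4 and CHOP, which PERK can raise, went the other way from the RNA of Eif2ak3. Of 12 such genes, 11 were lower and 1 was higher, with a median log2 difference of -0.79. RNA levels do not measure PERK activity, and which input moved these genes was not tested. Trib3, a pseudokinase induced by ATF4 and CHOP, had 18.7, 19.4 and 16.3 CPM in high glucose, against 77.6, 73.3 and 78.2 CPM in control (-2.08 ± 0.06, adjusted p = 5.32e-12). Atf4 had 359.9, 361 and 372 CPM in high glucose, against 598, 596 and 594 CPM in control (-0.71 ± 0.02, adjusted p = 4.03e-12). Sesn2, a sestrin that restrains mTORC1, had 78.5, 78.4 and 79.1 CPM in high glucose, against 160.1, 156 and 154 CPM in control (-0.99 ± 0.03, adjusted p = 3.08e-12). In all 3 of these genes the groups lay far apart. The gene that rose was Nupr1, a stress-induced chromatin protein (0.80 ± 0.08, adjusted p = 2.33e-06).

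Among the transducers and effectors of ER stress, 5 of 19 were lower and 5 higher. That is 26.3% each, near the 25.5% and 24.9% of all genes. Wfs1, the ER membrane protein wolframin, fell by 0.61 ± 0.06 on the log2 scale, and Creb3l1, a relative of ATF6 known for collagen secretion, fell by 0.47 ± 0.05. Bak1, an apoptosis effector, fell by 0.26 ± 0.04. Eif2ak2 and Eif2ak4, the PERK relatives PKR and GCN2, rose by 0.57 ± 0.04 and 0.19 ± 0.03. Mbtps1, a protease that cleaves ATF6, differed by 0.11 ± 0.03 (adjusted p = 0.00684) and did not pass with a single variance prior (0.0832, within a range of 3.17e-05 to 0.0832).

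The enzymes of collagen folding split, with 6 of 17 lower (35.3%) and 7 higher (41.2%), beside 25.5% and 24.9% of all genes. P4ha3, a catalytic subunit that pairs with P4hb, fell by 0.65 ± 0.03, Plod2, a lysyl hydroxylase, by 0.33 ± 0.02, and Ppib, a prolyl isomerase, by 0.22 ± 0.03. P3h4 rose by 0.72 ± 0.03, Fkbp14, a prolyl isomerase, by 0.44 ± 0.03 and P3h1, a prolyl 3-hydroxylase, by 0.25 ± 0.02. Of the other oxidoreductases 6 of 19 were lower and 6 higher (31.6% each). Qsox2, Qsox1 and Tmx4 fell by 0.55 ± 0.04, 0.43 ± 0.04 and 0.36 ± 0.03, and Gpx8, a peroxidase of the ER, Vkorc1, which recycles vitamin K, and Erp29 rose by 0.65 ± 0.03, 0.62 ± 0.05 and 0.41 ± 0.04.

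Of the other degradation genes 6 of 31 were lower (19.4%) and 11 higher (35.5%), beside 25.5% and 24.9% of all genes. Erlec1, a lectin related to Os9, rose by 0.51 ± 0.03, Rnf139, a ubiquitin ligase, by 0.51 ± 0.05 and Ubac2 by 0.36 ± 0.04. Aup1 fell by 0.36 ± 0.04, while Get4 and Ubl4a, of the tail-anchoring complex, had differences of -0.19 ± 0.04 and -0.25 ± 0.06 that did not pass on plain library totals (adjusted p = 0.101 and 0.0572). In the list of further chaperone and J-domain factors 6 of 19 were lower (31.6%) and 10 higher (52.6%). Calu and Rcn1, calcium-binding proteins, fell by 0.27 ± 0.02 and 0.29 ± 0.02 and Dnajc1 by 0.44 ± 0.03. Sdf2, a paralog of Sdf2l1, rose by 0.46 ± 0.03, Sdf4 by 0.38 ± 0.03 and Rcn3 by 0.32 ± 0.02.

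In the remaining lists calls went both ways. Among all genes 25.5% were lower and 24.9% higher, beside 23.8% and 19% of the translocon list and 18.2% and 27.3% of the COPII list. Of the glycoprotein folding genes 5 of 7 were lower and 1 higher. The lower ones included Man1a2, a mannosidase (-0.29 ± 0.03), and the folding sensor Uggt1 and the glucosidase subunit Prkcsh (-0.14 ± 0.02 and -0.15 ± 0.02), neither of which passed on plain library totals (adjusted p = 0.319 and 0.226), whereas the mannosidase Man1a1 rose by 0.55 ± 0.04. Of the oligosaccharyltransferase list, which also holds Dpagt1 and Alg genes that build the sugar chain, 8 of 20 were lower and 5 higher. Rpn2 was lower (-0.24 ± 0.02), and Ost4 (0.43 ± 0.03) and Dpagt1 (0.26 ± 0.03) were higher. Rpn1 and Stt3a differed by -0.15 ± 0.02 and -0.16 ± 0.02 and did not pass on plain library totals (adjusted p = 0.278 and 0.161). Of the other translocon and signal peptidase genes 5 of 21 were lower, led by Sec61a2, a second pore gene (-0.40 ± 0.04), and 4 higher, led by Sec62 (0.26 ± 0.03). Of the genes of COPII vesicle budding 4 of 22 were lower and 6 higher, with Kdelr1, a receptor that returns ER proteins, and Sar1b, a GTPase, at 0.26 ± 0.02 and 0.36 ± 0.04. Ergic1 and Tmed2 differed by -0.10 ± 0.03 and -0.07 ± 0.02, and their signs turned on plain library totals (0.0135 and 0.0469). With a single variance prior neither passed (adjusted p = 0.073 and 0.109).

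**Figure D5:**
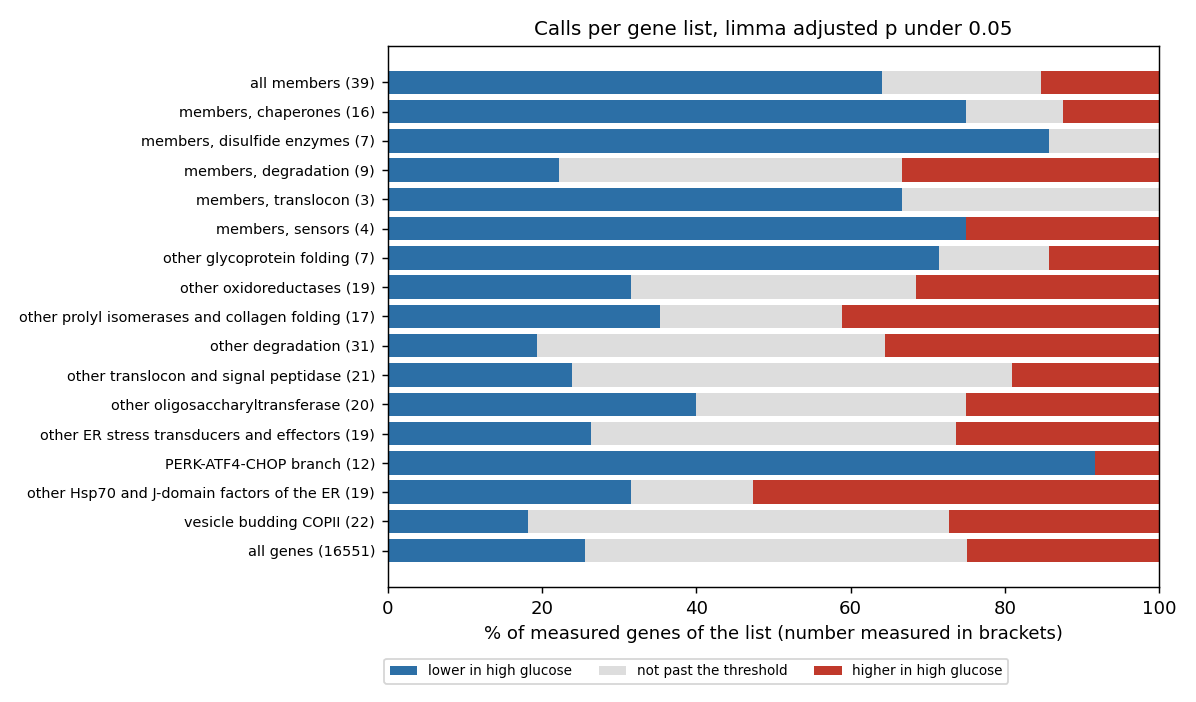
Share of the measured genes of each list that were lower (blue), higher (red) or not past the threshold (grey), with the members by role at the top and all 16551 genes at the bottom. The genes around ATF4 and CHOP were lower in 11 of 12 cases and the members in 25 of 39, while the degradation and COPII lists hold more genes that did not pass or rose.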

How the data were processed

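The authors deposited log2 values per gene and sample, voom-normalized per the file names; they have the form of log2 CPM with 0.5 read added. The build Rnor_6.0 and the tools HISAT2 2.1.0, featureCounts 1.6.0 and fastp 0.19.4 are named per the submitters' processing notes; settings, annotation version and strand were not given in the sources used here. Whole reads could be worked back for 100% of values (within 0.01 read), with 28780612 to 33108451 reads per sample. The chi-square per gene between samples was 3 to 4.81 within groups and 86.6 to 94.1 between groups, which leaves no pair that could be copies.

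Genes were tested with limma 3.58.1 in R 4.3.3 (group as the term, variance trend, two-sided, Benjamini-Hochberg over all 16551 genes, threshold 0.05) on the deposited values, and the test was tried on simulated data. CPM and read shares were computed from these values, and figures were drawn with matplotlib 3.10.9. Named in full were, per role, up to 4 members with the smallest adjusted p and every member called higher; of each other list, up to 3 lower and 3 higher. The members, lists and ratios were chosen with earlier results of these data known. No set test was made. The lncRNA table held no member and was not used. The planned protein features were not run. Same-numbered samples did not deviate together (correlations -0.092, -0.043 and 0.025), so replicate numbers were not taken as pairs.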

Additional observations from a re-analysis of the deposited data

How the results depend on the processing

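The 2 choices that moved results most were the library scaling and quantile normalization. On plain library totals 16 members were lower and 12 higher, with 3 disulfide enzymes lower, 1 degradation gene lower and 7 higher, no (0) translocon gene lower and 1 higher, and a members' median log2 difference of -0.0502. There the differences of Dnajb9 (0.0988), Dnajb11 (0.0375), P4hb (0.0382), Herpud1 (0.0836), Os9 (0.089), Sec61a1 (0.0023), Ergic1 (0.0135) and Tmed2 (0.0469) changed sign; by construction every gene moves by the gap between the authors' scaling factors. After quantile normalization 1 disulfide enzyme was higher, 0 translocon genes lower and 1 higher, and the members' median was -0.10; P4hb (0.19), Herpud1 (0.0013), Os9 (0.01) and Tmed2 (0.0025) changed sign, and the cause was not tested. Median centring left 1 chaperone higher and turned Fkbp2 (-0.0141), Syvn1 (-0.0133) and the median of all genes (-0.0117), which was also -0.0067 without genes of mean log2 under 0 and -0.006 without the lowest 25% of genes. A single variance prior left 1 chaperone higher and 1 translocon gene lower. Leaving out 1 sample at a time gave 21 to 24 members lower and 5 to 6 higher, 1 to 2 chaperones higher and 1 to 2 translocon genes lower. In those fits the signs of Syvn1 (-0.0054 to 0.0372), Dnajb9 (-0.0508 to 0.0385), Fkbp2 (-0.0109 to 0.0243), Derl2 (-0.0046 to 0.123) and Os9 (-0.061 to 0.0055) turned, none of which passed in any of them. With the replicate block 23 members were lower and 6 higher, Dnajb11 (adjusted p = 0.0604) and Fkbp11 (0.0551) no longer passing. Adding 2 reads or voom precision weights changed no member's call. No member had fewer than 217 reads in any sample, and the part of depth in each SE was not tested.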

Other observations

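Outside the rule for named genes, 2 genes of the ER lists were singled out after their values were seen. Cdnf, the paralog of Manf, was scarce and higher, with 303 reads over the 3 high-glucose samples and 63 over the 3 control samples (3.38, 2.98 and 3.21 CPM in high glucose, against 0.774, 0.728 and 0.693 CPM in control; 2.12 ± 0.19 on the log2 scale, limma adjusted p = 5.2e-07), while Manf itself was lower. Ddit3, which encodes CHOP, had 14.4, 14.5 and 13.5 CPM in high glucose, against 27.8, 26.6 and 29.6 CPM in control (-0.98 ± 0.06, limma adjusted p = 8.12e-09).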
